A study of Mus musculus with 3 samples.

Results

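Erg, Fli1, Etv6, Ets1 and Ets2 are 5 genes of the ETS family of transcription factors, and their open chromatin was examined in mouse long-term hematopoietic stem cells (LT-HSCs). The genes were chosen by name, 5 of 21755 protein-coding genes with an annotated start on chromosomes 1 to 19 and X. The cells came from 1 preparation of bone marrow from 8-week-old female wild-type C57BL/6 mice. They were enriched for c-Kit on magnetic beads, stained with antibodies, and sorted as LSK CD150+CD48-CD34-. DOGMA-seq, which reads open chromatin, RNA and antibody tags of the same cells, gave 3 libraries, of which the ATAC library is used here. How many mice went into the preparation is not stated in any source that was used. There was no replicate and no second condition, so no value below carries a test, and every interval covers counting error only, over fragments that carry no molecular identifiers.

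ETS proteins share a DNA-binding domain that recognises a GGAA core. Erg is required to maintain adult HSCs, Fli1 acts in HSCs and megakaryocytes, and Etv6 is a repressor needed for hematopoiesis in the bone marrow. Ets1 is best known from lymphocytes, and Ets2 is its close paralog. The genes lie as neighbors that are transcribed away from each other, Fli1 with Ets1 and Erg with Ets2, while Etv6 stands alone. Transposase cuts DNA where it is not held in nucleosomes or compact chromatin, so each fragment end marks an accessible position in a single cell.

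Of 3757 called cells, 3108 had more than 3000 fragments in peaks and were kept. They held a median of 11442 fragments each (3970 to 194134). A gene's window was its body with 150 kb on either side, in bins of 500 bp, and a bin was called open when at least 3% of the cells had a fragment end in it. Over the 5 windows, which overlap within each neighbor pair, 110 of 3667 bins were open, or 3.00% (95% exact binomial interval 2.47 to 3.60%). The background was 1.39% of all bins of chromosomes 1 to 19 and X. Open bins were joined into 62 elements, of which 37 reached 5% of cells. By annotation, 5 elements were promoters of the 5 genes, 37 lay in introns, 17 were intergenic and 3 lay in exons. As a check of the sort, the promoters of 8 genes of the gate or of stem cells were read, and 6 were open, with Mecom highest at 43.7% of cells. The 2 that were not were Slamf1, which encodes CD150, at 2.90%, and Ly6a, which encodes Sca-1, at 0.869%. Of 21 promoters of genes of other blood or marrow cell types 10 were open, including all 3 of the megakaryocyte list (Itga2b at 39.9%) and 0 of the 3 of the neutrophil list, while 62.1% of all protein-coding genes had an open promoter. Their part in the results below was not tested.

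Each window held more fragments than the genome's mean per kb. The fold over that mean was 2.36 for Fli1, 2.32 for Etv6, 2.12 for Ets1, 2.00 for Erg and 1.74 for Ets2. The mean covers whole chromosomes, and fragments in windows around other genes were not counted. The folds therefore do not compare these loci with other gene loci, and nor does the share of open bins above. Elements made up 2.71 to 4.04% of the length of a window and held 38.1% of its fragments in Etv6, 49.5% in Erg, 49.6% in Fli1, 51.5% in Ets2 and 59.7% in Ets1. Etv6 thus had the largest share of its fragments spread outside elements. At least 1 fragment was seen in 84.7% of the cells for the small Ets2 window and in 94.6 to 97.5% for the others.

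**Figure D1:**
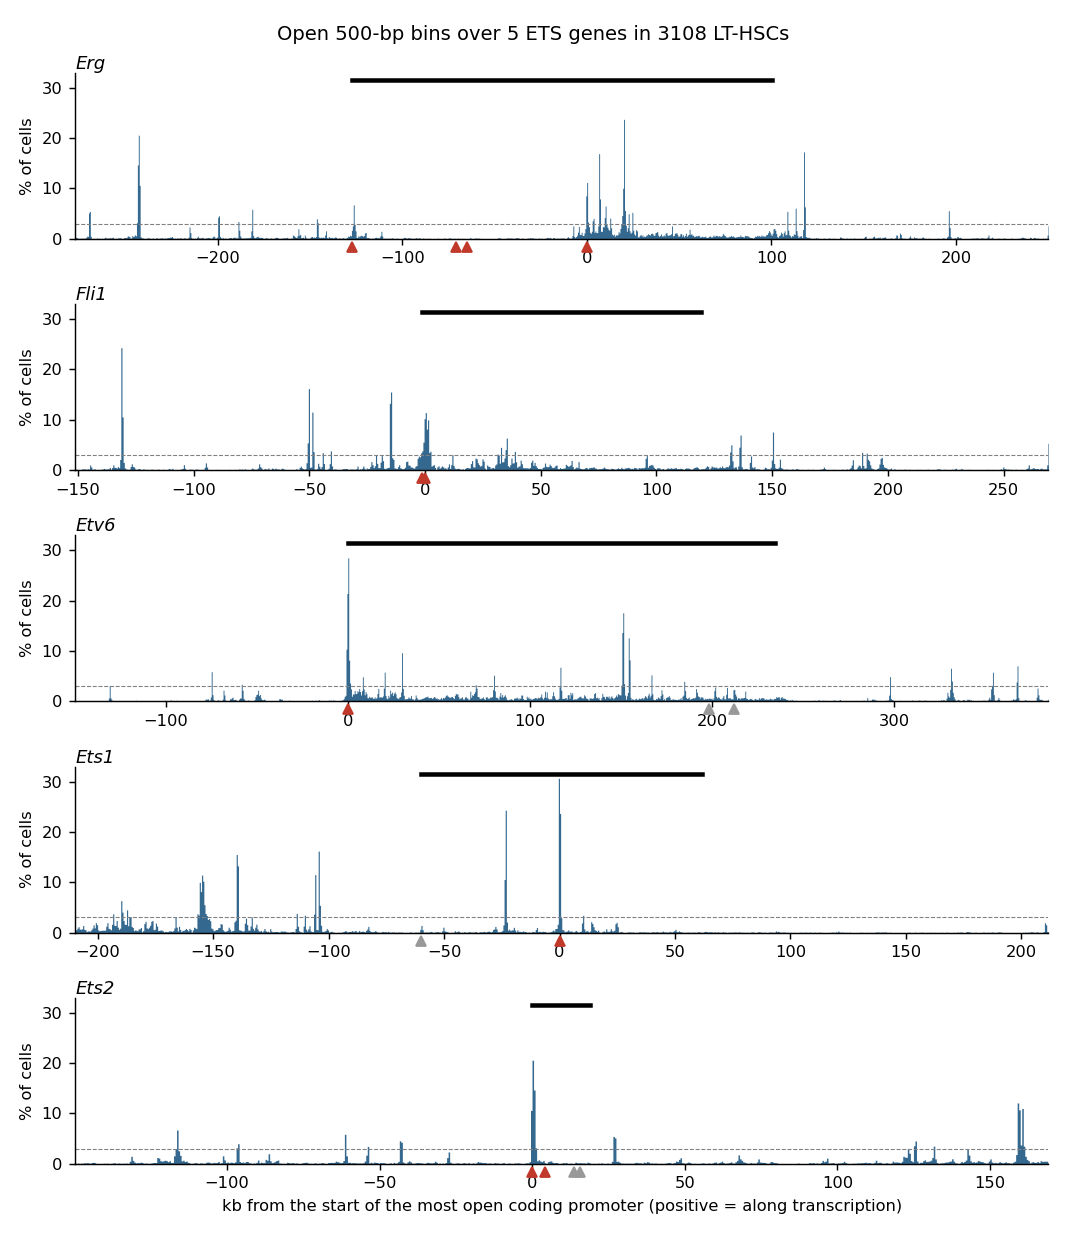
The share of 3108 cells with a fragment end is plotted for each 500-bp bin of the 5 windows against the distance in kb from the most open coding start, with transcription running to the right, black bars for the gene bodies, red triangles for coding starts, gray triangles for noncoding starts and a dashed line at 3%. In Erg the tallest bin of the gene (23.7%) stands inside the body, and the stretch between the far start on the left and the start at 0 is nearly flat, whereas in Etv6 and Ets1 the tallest bin (28.5% and 30.7%) is the promoter.

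Each gene opened mainly at a single promoter. Starts of protein-coding transcripts within 500 bp of each other were joined, which gave 10 coding promoters, and 6 of them had an open bin. By the strongest 500-bp bin, Ets1 had the highest promoter share, at 953 of 3108 cells or 30.7% (29.0 to 32.3%). Etv6 followed at 28.5% (26.9 to 30.1%), and their intervals overlap. Ets2 stood at 20.6% (19.2 to 22.1%), below both. Fli1 at 11.4% (10.3 to 12.6%) and Erg at 11.2% (10.1 to 12.4%) were lowest and did not differ beyond counting error. The order turned with the stretch counted. With a fragment end anywhere in the promoter element, the share was 42.8% for Etv6, 38.3% for Ets1, 33.5% for Fli1, 29.9% for Ets2 and 15.2% for Erg. By this reading Erg was lowest alone, but the elements were 1000 to 4500 bp wide, widest in Fli1. Within 500 bp of the starts of each most open group, stretches of more equal length, the order was that of the bins. The share was 38.8% for Ets1, 36.3% for Etv6, 29.3% for Ets2, 15.3% for Fli1 and 14.5% for Erg. The promoters of all 5 genes were open, where 62.1% of protein-coding genes were. By strongest bin among the promoters of all protein-coding genes, 17.1% were open in more cells than that of Ets1 and 42.3% in more cells than that of Erg.

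Erg has 4 coding start groups spread over 127 kb, and they were open in very unequal shares of the cells. The start nearest the 3′ end, at chr16:95459348 on the minus strand (transcripts Erg-202, Erg-203, Erg-205 and Erg-207), was open in 348 cells. The far start, at chr16:95586593 (Erg-206), reached 80 cells or 2.57% (2.05 to 3.19%), just under the threshold. Its neighboring bin 0.941 kb inside the gene was open in 6.72% (5.87 to 7.66%). The starts between them, at chr16:95530365 (Erg-201 and Erg-208) and chr16:95524603 (Erg-204), had a fragment end in only 2 of 3108 cells each, a share of 0.0644% whose interval ends at 0.232%. At these starts no opening above that bound was detectable at this depth.

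The 300 bases before the open Erg start and before the far start are shown to compare their composition. They are read from GRCm38 on the minus strand, at chr16:95459349-95459648 and chr16:95586594-95586893. Capitals mark the strings AGGAAG and CCGGAA for ETS factors and AGATAA and TGATAA for GATA factors, on either strand.
Erg open start: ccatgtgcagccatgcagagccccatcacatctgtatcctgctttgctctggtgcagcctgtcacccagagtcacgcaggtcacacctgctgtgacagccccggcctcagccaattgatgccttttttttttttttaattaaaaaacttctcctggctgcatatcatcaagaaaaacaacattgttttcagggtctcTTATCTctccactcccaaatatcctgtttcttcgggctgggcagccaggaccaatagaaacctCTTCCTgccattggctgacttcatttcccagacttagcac
Erg far start: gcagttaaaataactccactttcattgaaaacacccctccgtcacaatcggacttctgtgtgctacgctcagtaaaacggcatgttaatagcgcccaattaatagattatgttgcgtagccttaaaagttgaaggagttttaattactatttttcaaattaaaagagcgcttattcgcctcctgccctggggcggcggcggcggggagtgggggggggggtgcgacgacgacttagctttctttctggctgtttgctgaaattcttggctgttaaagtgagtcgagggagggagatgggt
The open start held 3 CpG dinucleotides and 1 match each for ETS and GATA. The far start held 16 CpG and no match. For comparison, the same stretch of Ets1 held 29 CpG with 70.3% G and C, that of Ets2 20 CpG, that of Etv6 19 and that of Fli1 11. The open Erg promoter was thus the poorest in CpG among the most open promoters of the 5 genes.

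In the other genes, too, the starts were open in unequal shares of cells. Fli1 starts on the minus strand at chr9:32541595 (Fli1-201) and 1.27 kb upstream at chr9:32542861 (Fli1-202). Fli1-202 had a fragment end in 5.53% of cells (4.76 to 6.40%). Both lay in an element of 4500 bp, the widest of the 62, and a fragment end anywhere in it was seen in 33.5% of cells. Only 23.8% of the fragments at its strongest bin were shorter than the DNA wound on a nucleosome, against 45.6% of all fragments of the cells. At the strongest promoter bins of the other genes the share was 31.9% for Ets2, 46.7% for Erg, 52.5% for Etv6 and 68.3% for Ets1. An intergenic element beyond the 3′ end of Fli1, at chr9:32409001-32410000 and open in 5.02% of cells, had 17.8% such short fragments at its strongest bin and 26 CpG in 300 bases. Etv6 opened at chr6:134035700 (Etv6-201, Etv6-202 and Etv6-204), while 2 noncoding starts further in, 198 and 212 kb along the gene, were at 0.644% and 2.35%. Ets1 opened at its coding starts from chr9:32696022, and its noncoding start 59.8 kb upstream was at 1.42% (1.03 to 1.90%). Ets2 opened at chr16:95702075, and its second coding start 4.26 kb downstream was at 0.644% (0.393 to 0.992%), with its noncoding starts at 0.322% and 0.225%.

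Erg differed from Etv6, Ets1 and Ets2 in that sites away from promoters were open in more cells than its own promoter. The strongest was an intronic element at chr16:95438501-95441000, 2500 bp wide and 19.9 kb downstream of the open start, in intron 1 of Erg-203 and intron 2 of Erg-208. Its strongest bin was open in 738 cells or 23.7% (22.3 to 25.3%). An element at chr16:95452001-95453000, 6.78 kb downstream of the start in the same intron, was open in 16.9% (15.6 to 18.3%). Another, at chr16:95341001-95342000, lay beyond the 3′ end of Erg, 118 kb from the start, in an intron of the antisense gene Gm31641, and was open in 17.3% (15.96 to 18.7%). The interval of each excludes the share of the Erg promoter. Intron 1 of Erg-203 held 7 of the 62 elements, of which the other 5 were open in 4.05 to 6.50% of cells. Of the 39181 open bins away from protein-coding starts genome-wide, 2.60% were open in more cells than the strongest Erg bin, and the median was 5.12%.

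The sequence around the summit of the strongest Erg element is given because it carries the tallest signal of the gene. It is the plus strand of GRCm38, chr16:95439256-95439555, with capitals as above.
Erg intronic element: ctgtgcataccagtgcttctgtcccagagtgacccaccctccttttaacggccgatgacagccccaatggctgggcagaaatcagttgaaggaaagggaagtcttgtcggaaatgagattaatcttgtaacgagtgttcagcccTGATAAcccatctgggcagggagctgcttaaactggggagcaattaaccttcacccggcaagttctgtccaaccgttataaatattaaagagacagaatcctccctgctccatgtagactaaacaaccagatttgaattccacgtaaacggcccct
It held 1 GATA string and none of the ETS strings, with 4 GGAA cores on either strand. Open bins away from starts had a median of 3 such cores genome-wide, with quartiles of 2 and 5, but were read in their central 300 bases and not at a summit, so the counts given here and below are only roughly comparable with them.

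Fli1 and Ets1 share their strongest distal site. It lay at chr9:32672001-32673000, 23.3 kb upstream of the coding starts of Ets1 within an intron of its noncoding transcripts, and 131 kb upstream of Fli1. Its strongest bin was open in 24.3% of cells (22.8 to 25.9%), an interval that overlaps that of the strongest Erg bin, and 69.1% of the fragments at that bin were shorter than the DNA of a nucleosome. Over the whole element the share was 26.8%, below the 30.6% of the wider Erg element. Between the promoters stood further sites nearer to Fli1. One at chr9:32591501-32592500, 50.3 kb upstream of Fli1, was open in 16.2% of cells (14.9 to 17.5%). Its neighbor at chr9:32589501-32590500 was open in 11.5%. Another at chr9:32556001-32557000, 14.9 kb upstream of Fli1, was open in 15.5% (14.3 to 16.8%). Within intron 1 of Fli1 stood 5 weaker elements, from 3.02% to 6.34% of cells, the lowest of them 11.8 kb downstream of the start. Beyond the promoter, the Ets1 body held 1 element, at 3.41%.

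The shared site and the strongest site nearer to Fli1 are shown, both on the plus strand of GRCm38, at chr9:32672561-32672860 and chr9:32591756-32592055.
Ets1 upstream element: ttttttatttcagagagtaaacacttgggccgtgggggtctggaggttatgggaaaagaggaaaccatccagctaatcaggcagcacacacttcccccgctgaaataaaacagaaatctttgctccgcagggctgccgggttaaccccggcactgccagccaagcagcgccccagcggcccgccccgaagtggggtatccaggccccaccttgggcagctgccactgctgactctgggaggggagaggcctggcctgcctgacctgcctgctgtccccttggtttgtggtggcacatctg
Fli1 upstream element: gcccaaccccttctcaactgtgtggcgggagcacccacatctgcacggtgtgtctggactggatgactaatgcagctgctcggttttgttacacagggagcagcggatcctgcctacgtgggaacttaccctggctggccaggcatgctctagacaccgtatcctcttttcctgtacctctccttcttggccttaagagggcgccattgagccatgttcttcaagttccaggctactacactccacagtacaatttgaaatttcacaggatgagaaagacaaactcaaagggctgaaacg
Neither held any of the ETS or GATA strings, and each had 3 GGAA cores.

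The 3 strongest distal elements of the Etv6 window lay inside the gene. A pair of elements stood in intron 2, 151 and 154 kb from the promoter. The first, at chr6:134185501-134187500, was open in 17.6% of cells (16.3 to 18.98%), and the second, at chr6:134189501-134190500, in 12.6% (11.5 to 13.8%). Another element, in intron 1, at chr6:134065001-134065500 and 29.5 kb from the promoter, was open in 9.65% (8.64 to 10.7%). All 3 stayed below the Etv6 promoter, and the other 14 distal elements of the window, 7 inside the gene and 7 outside it, were open in 3.12 to 7.05%. The highest of these lay beyond the 3′ end of Etv6, in an exon of the protein-coding gene Bcl2l14 and of the antisense gene 4933406J09Rik. The pair is shown because both members hold ETS and GATA strings and a common stretch, on the plus strand at chr6:134186395-134186694 and chr6:134189846-134190145.
Etv6 first element: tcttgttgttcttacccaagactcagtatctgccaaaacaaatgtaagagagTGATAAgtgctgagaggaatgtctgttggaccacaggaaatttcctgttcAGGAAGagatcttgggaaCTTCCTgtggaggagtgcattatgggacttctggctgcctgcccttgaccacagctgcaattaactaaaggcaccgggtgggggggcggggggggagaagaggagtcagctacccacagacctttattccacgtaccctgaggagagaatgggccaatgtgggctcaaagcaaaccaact
Etv6 second element: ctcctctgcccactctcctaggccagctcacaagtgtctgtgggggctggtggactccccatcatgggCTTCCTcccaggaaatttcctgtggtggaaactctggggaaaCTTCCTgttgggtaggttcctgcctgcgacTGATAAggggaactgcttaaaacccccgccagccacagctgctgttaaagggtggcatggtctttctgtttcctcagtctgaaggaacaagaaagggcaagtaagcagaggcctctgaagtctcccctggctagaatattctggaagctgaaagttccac
Each held 2 ETS strings and 1 GATA string. They shared the 18 bases accacaggaaatttcctg, written as in the first element and found on the opposite strand in the second. Of 1596 pairs of distal elements 8 shared a run of 15 bases or more, and the median longest run was 9. The runs longer than that of the Etv6 pair, in 4 pairs, were CA or A repeats. The search was made after these sequences were read. The second element held 12 GGAA cores and the first 7.

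Ets2 had its strongest distal site at the far edge of its window. The element at chr16:95861001-95863500, 159 kb downstream in an intron of the lincRNA gene 1600002D24Rik, was 2500 bp wide. Its strongest bin was open in 12.1% of cells (11.0 to 13.3%), while 25.3% had a fragment end anywhere in it. The next elements of the window, at 6.72% and 5.86%, were the inner flank of the far Erg start and an intergenic site 61.1 kb upstream of Ets2. The summit of the strongest element, chr16:95861345-95861644 on the plus strand, held the most strings of those shown, 3 for ETS and 2 for GATA, of which an ETS and a GATA string overlap.
Ets2 distal element: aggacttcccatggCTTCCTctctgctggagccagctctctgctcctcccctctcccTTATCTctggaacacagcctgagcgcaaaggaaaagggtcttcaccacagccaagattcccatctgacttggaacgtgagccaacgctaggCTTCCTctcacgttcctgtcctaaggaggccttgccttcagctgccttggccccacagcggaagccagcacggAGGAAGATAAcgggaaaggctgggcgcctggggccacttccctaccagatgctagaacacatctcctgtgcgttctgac
It also held 12 GGAA cores.

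**Figure D2:**
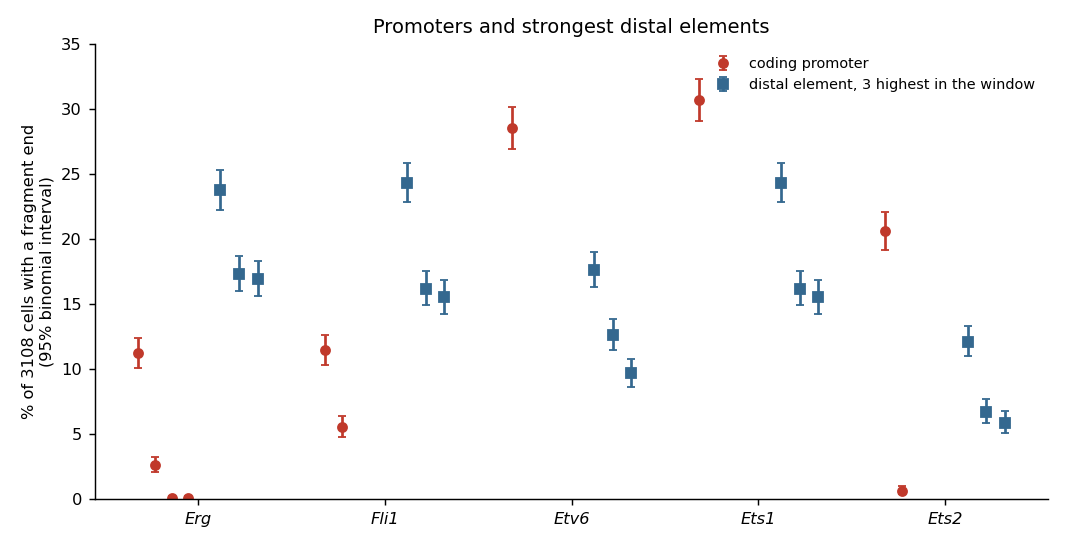
Points give the percentage of 3108 cells with a fragment end in the strongest bin of each coding promoter (red circles) and of the 3 highest distal elements of each window (blue squares), with 95% exact binomial intervals. The blue squares stand above the red circles in Erg and Fli1 (23.7% over 11.2% and 24.3% over 11.4%) and below the highest red circle in Etv6, Ets1 and Ets2, and the same 3 squares appear for Fli1 and Ets1 because their windows overlap.

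The strongest distal bin over the strongest promoter bin gave a ratio of 2.12 for Erg (1.89 to 2.38) and 2.13 for Fli1 (1.90 to 2.39). In the remaining genes it was 0.793 for Ets1 (0.731 to 0.861), 0.617 for Etv6 (0.562 to 0.678) and 0.588 for Ets2 (0.523 to 0.661). A ratio above 1 was found in 41% of the 13518 protein-coding genes with an open promoter, and 18.1% of those genes had a higher ratio than Erg, so such values were common. The Fli1 value depended on what was counted. With only bins nearer to its own coding starts than to those of Ets1 it was 1.42 (1.25 to 1.61), and with whole elements in place of bins it was 0.800 (0.741 to 0.864), from 26.8% over 33.5% of cells. The Erg value was 2.01 with whole elements and was the same 2.12 with its nearer bins. With only fragments shorter than the DNA of a nucleosome the Ets2 ratio turned to 1.09 (0.915 to 1.29) and that of Fli1 was 3.99 (3.34 to 4.76). With bins shifted by 250 bp the Etv6 ratio was 0.916 (0.832 to 1.01), an interval that includes 1. In Erg and Fli1 the ratio was lower in deeper cells. With the cells split by depth into 4 groups of equal size, Erg went from 2.72 in the shallowest (median of 7455 fragments) to 1.64 in the deepest (15520), and Fli1 from 2.57 to 1.89, both above 1 in all 4 groups. Etv6, at 0.491 to 0.742 and highest in the deepest cells, Ets1, at 0.734 to 0.826, and Ets2, at 0.474 to 0.704, were below 1 in all 4. The part of depth in the ratios was not tested further.

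The gene bodies between elements also differed. Outside the elements and the bins next to them, fragment ends were counted per kb over all 3108 cells. The body of Erg from its open promoter to its 3′ end held 35.7 fragments per kb (34.5 to 37.0, exact Poisson interval). The part of the same gene between the far start and the open promoter held 8.91 (8.39 to 9.45), close to the flanks of the window at 9.52 and 10.5. The 2 parts of the Erg body, divided at the open promoter, differed 4.01-fold (3.75 to 4.30). Soft-masked repeats made up 20.5% of the first part and 28.0% of the second, and G and C made up 46.2% and 45.7%. The part of repeats in the difference was not tested. The fold lay between 3.78 and 4.49 in the 4 depth groups and was 3.87 with the fragments shorter than the DNA of a nucleosome alone.

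Etv6 had a body density of 36.9 per kb (36.1 to 37.7), similar to Erg, and 5.26-fold and 3.81-fold over its flanks. Repeats made up 18.0% of that body but 51.8% of the lower-coordinate flank and 29.0% of the other, and their part in these folds was not tested. Fli1 held 27.2 (26.2 to 28.2), 2.11-fold and 1.86-fold over its flanks. Ets1, whose promoter was among the 2 most open, held only 11.8 per kb (10.9 to 12.7) beyond it, 1.09-fold (0.976 to 1.21) the 10.8 upstream of it. That interval includes 1, so a difference between the 2 parts of Ets1 was not detectable at this depth. Beyond the Ets1 3′ end the density fell to 2.68 (2.42 to 2.95). Ets2, a gene of only 18.98 kb, held 11.6 (10.0 to 13.3), with intervals of its folds over both flanks that include 1. Promoter openness and body density outside elements ordered the genes differently, with Ets1 among the first 2 in promoter share, by bin or by element, and near the lowest in density. With elements counted in, the whole bodies held from 35.6 per kb in Ets1 to 67.3 in the short Ets2.

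**Figure D3:**
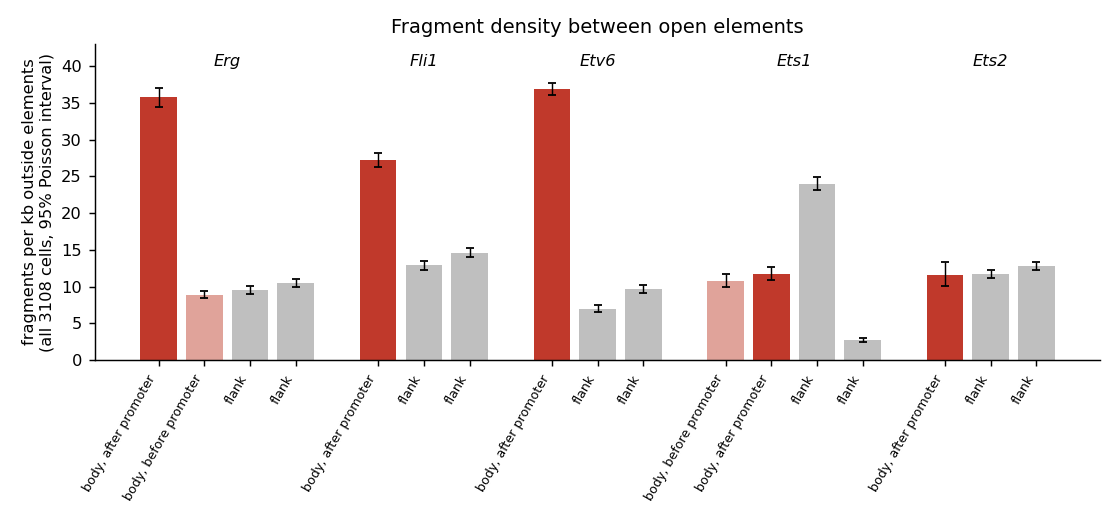
Bars give fragments per kb outside elements, summed over 3108 cells, for the part of each gene body after its most open promoter (dark red), the part before it (light red, Erg and Ets1) and both flanks (gray, lower coordinates first), with 95% exact Poisson intervals. The bars for Erg (35.7), Etv6 (36.9) and Fli1 (27.2) after the promoter stand well above the light bar of Erg (8.91), while those of Ets1 (11.8) and Ets2 (11.6) do not; the tall gray bar of Ets1 (24.0) covers much of the Fli1 locus.

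Across cells, elements of a locus opened together little more often than elements of different chromosomes. A cell had a median of 6 of the 62 elements open (quartiles 4 and 8), the highest had 37, and 20 cells or 0.644% had none. For 198 pairs of elements of the same window, each open in at least 5% of cells and at least 2000 bp apart, the cells open at both were divided by the number expected from each element's share within 20 groups of cells of like depth. The median ratio was 1.04. For 454 pairs on different chromosomes it was 1.02. The pairs share elements and cells, so the spread over pairs is not an error over independent values. By distance the medians were 1.05 at 2 to 10 kb over 9 pairs, 1.04 at 10 to 50 kb, 1.04 at 50 to 200 kb and 1.06 at 200 kb or more. Pooled over the pairs of each range, observed over expected cells was, in the same order, 1.10 (0.990 to 1.22), 1.07 (1.01 to 1.12), 1.04 (1.01 to 1.08) and 1.04 (0.997 to 1.08). Over all pairs it was 1.05 (1.03 to 1.07) within windows and 1.03 (1.01 to 1.04) between chromosomes, intervals that exclude 1 but overlap each other and treat the pairs as separate counts. The Poisson interval lay above 1 in 6 of the 198 pairs within windows, or 3.03%, and in 7 of the 454 between chromosomes, or 1.54%. It lay below 1 in 0 and 2 pairs.

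The Erg promoter and its strongest intronic element were open together in 95 cells against 88.1 expected, a ratio of 1.08 (0.872 to 1.32). The pair of the Erg promoter and the element 6.78 kb away gave 80 against 66.8, or 1.20 (0.949 to 1.49). The Fli1 promoter and the site shared with Ets1 gave 85 against 97.1, or 0.876 (0.700 to 1.08). The Ets1 promoter with that same site gave 266 against 249, or 1.07 (0.943 to 1.20). The Etv6 promoter and the first of its intronic pair gave 168 against 169, or 0.991 (0.847 to 1.15). None of these intervals excludes 1. Of the 15 pairs of a promoter with a named distal element of its window, 1 had an interval above 1, the Ets2 promoter with the intergenic site 61.1 kb upstream, at 54 cells against 39.5 or 1.37 (1.03 to 1.79). Of the others above 1, all chosen after their values were seen, the Fli1 promoter and the highest element of its intron 1 gave 40 against 26.9, or 1.49 (1.06 to 2.03). The pair with the largest count joined the element 14.9 kb upstream of Fli1 and the one 23.3 kb upstream of Ets1, which were open together in 163 cells against 128, a ratio of 1.28 (1.09 to 1.49). Pairs on different chromosomes reached like or higher ratios, such as 1.81 (1.09 to 2.83) for an Erg intron element at 5.24% with an Etv6 intron element, also at 5.24%, on 19 cells against 10.5, and 1.47 (1.09 to 1.93) for another Erg intron element with the one 14.9 kb upstream of Fli1. Between the promoters of different genes the ratios ran from 0.929 for Erg with Ets2 to 1.09 for Ets1 with Ets2, and all 10 intervals included 1. The pair of Erg and Fli1 gave 48 cells against 45.4.

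**Figure D4:**
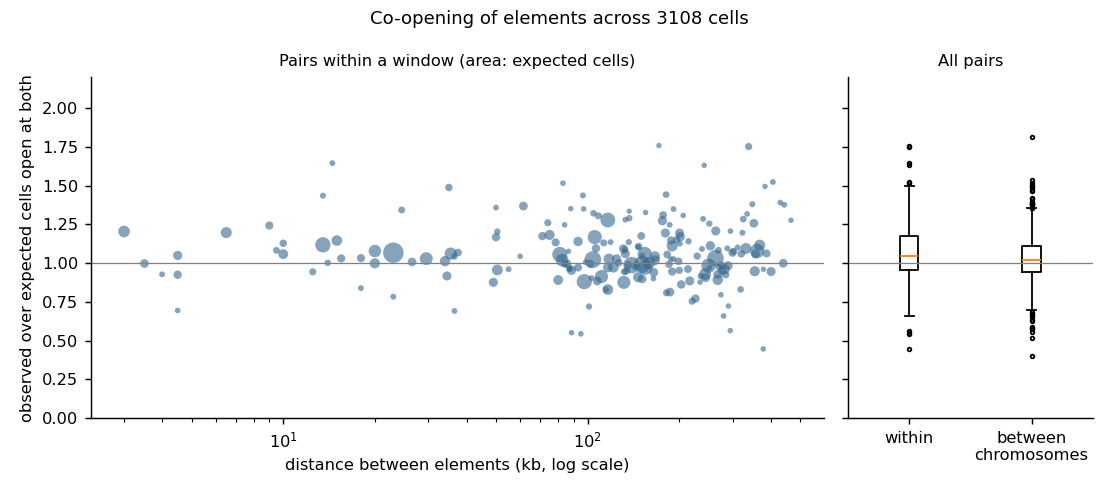
The left panel plots observed over expected cells open at both elements against the distance between them in kb on a log scale, 1 point for each of 198 pairs within a window, with an area that grows with the expected cells. The right panel gives boxes (median, quartiles, whiskers to 1.5 interquartile ranges, circles beyond) for those and for 454 pairs between chromosomes, and the medians of 1.04 and 1.02 both lie near 1, with larger points closer to 1 than small ones.

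No gene on another chromosome followed a member closely. Fragments over each gene body with 2000 bp upstream were adjusted for depth, and the highest Pearson correlation over 3108 cells was 0.0822, for Etv6, among 14984 protein-coding genes of at least 300 fragments less those on the member's own chromosome. None reached the 0.1 set for naming. Among the members the correlations ran from -0.0366 for Erg with Ets2 to 0.0609 for Erg with Etv6. All values share 1 library and are from sparse counts, and no relation is read from them.

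Among the other 21 ETS genes, the promoters of 17 were open, where 62.1% of all protein-coding genes had an open promoter. The median over all 21 was 14.96% of cells, against 7.50% over all protein-coding genes. The highest were Etv5 at 67.7% (66.1 to 69.4%), Elf1 at 47.7% and Elk4 at 40.1%, all above the 5 genes described. The lowest were Spic at 1.35%, Spib at 1.22% and Ehf at 0.290%. Of the 17 with an open promoter, 9 had a strongest distal bin above their promoter, as Erg and Fli1 did, where 41% of genes with an open promoter had.

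**Figure D5:**
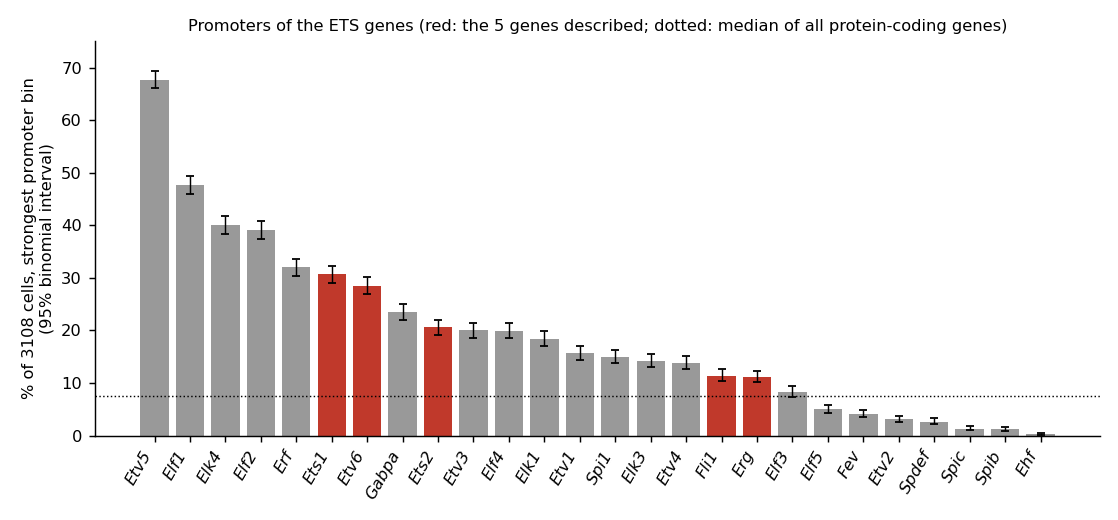
Bars give the percentage of 3108 cells with a fragment end in the strongest promoter bin of 26 ETS genes, the 5 genes described in red, with 95% exact binomial intervals and a dotted line at the median of all protein-coding genes (7.50%). Ets1 (30.7%) and Etv6 (28.5%) stand in the upper part of the family, and Fli1 (11.4%) and Erg (11.2%) below most members with an open promoter but above the dotted line.

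The letters of the distal open bins of the windows were compared with those of all open bins away from protein-coding starts, in the central 300 bases of each bin, on both strands. An ETS string was present in 51 of 94 such bins in the windows, or 54.3%, and in 45.2% of 39180 bins genome-wide. GATA strings were in 18.1% against 21.1%. The E-box strings CAGCTG and CATCTG were in 30.9% against 35.1%, the RUNX string TGTGGT in 23.4% against 23.5%, the KLF strings GGGCGG and CCCACC in 31.9% against 37.6%, and the MEIS string TGACAG in 24.5% against 19.6%. The GATA strings differ only in their first base, and strings of different families may overlap in a few bases. In the 16 open bins near starts, ETS strings were in 5, or 31.3%, against 42.5% of 34069 bins. The position of the 300 bases mattered. Centred on the summits of the 57 distal elements, they held an ETS string in 35, or 61.4%, a GATA string in 22, or 38.6%, a RUNX string in 20, or 35.1%, an E-box string in 40.4%, a KLF string in 36.8% and a MEIS string in 17.5%, and those of the 5 promoter elements held an ETS string in 5. Summits were not placed genome-wide, so these shares have no background of the same kind. Away from starts, GATA, RUNX, E-box and MEIS stand on opposite sides of the bins' background by the 2 readings, with the RUNX bins very close to it. The ETS strings near starts do so as well.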

How the data were processed

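Open chromatin was measured in 1 ATAC library of sorted LT-HSCs. Per the file headers, the fragments came from Cell Ranger ARC 2.0.2 and its mm10 reference, which collapses duplicate read pairs into fragments and calls cells from ATAC and RNA together. The authors deposited per-barcode counts of fragments, and for every fragment its position and count of read pairs, none of them normalized. No source that was used says whether fragment ends were moved for the transposase offset.

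The file held 42000180 fragments from 605049 barcodes. No chromosome's last fragment ended beyond GRCm38, so GRCm38 sequence (RefSeq) and GENCODE vM21 annotation were used. Called cells with more than 3000 peak-region fragments were kept, without the study's other limits, and doublets were kept except in an alternative. Each fragment counted in the 500-bp bins of its ends, once per cell. Open bins, joined across 1 closed bin, formed elements. Promoters were bins within 500 bp of a start, and distal bins were farther from every protein-coding start. Sequences of 300 bases were centred on the summit of fragment ends (51-bp smoothing) or lay before a start. Named were all coding starts, the 3 highest distal elements per window, and the 3 highest and 3 lowest other ETS promoters. Intervals are exact (95%), and those of ratios and folds use the log scale. Alternatives changed the cells, the fragments counted, the bins, the threshold and the depth groups, 1 at a time. Element and pair calls were tested on simulated data with known answers. Python 3.11.15, numpy 2.4.6, pandas 2.3.3, scipy 1.17.1 and matplotlib 3.10.9 were used. The genes and lists were chosen with earlier results of these data known. The RNA and antibody libraries were not used here.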

Additional observations from a re-analysis of the deposited data

Results flagged for a closer look

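Fragments of barcodes not called as cells were outside every comparison above, and they too fell in the elements, above the 3 counts that a count of 0 allows. Those with an end in an element numbered 408 in the Erg window, 377 in the Fli1 window, 367 in the Etv6 window, 417 in the Ets1 window and 228 in the Ets2 window, with shared elements counted in both windows. They were 34.4% of those barcodes' 1186 fragments in the Erg window, where the passing cells had 49.5% of theirs in elements, and 24.7% of 1488 in the Etv6 window, where the passing cells had 38.1%. Groups of samples could not be screened for outlying values, since there is 1 library.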

How the results depend on the processing

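The Erg ratio stayed above 1, and the Etv6 and Ets1 ratios below 1, under every alternative run. The Fli1 ratio fell below 1 to 0.800 with whole elements, and the Ets2 ratio rose above 1 to 1.09 with fragments shorter than the DNA of a nucleosome. By midpoint, 1.99% of bins were open and the ratios were 2.45 (Erg), 2.72 (Fli1), 0.557 (Etv6) and 0.865 (Ets1). With bins shifted by 250 bp the ratios were 0.916 (Etv6, interval 0.832 to 1.01), 0.659 (Ets1) and 0.683 (Ets2). Fragments with at least 2 read pairs left 2.15% of bins open. Those short fragments left 1.28% and 33 elements, with ratios of 2.64 (Erg), 3.99 (Fli1) and 0.680 (Etv6). Cells thinned to 3000 fragments left 0.682% and 15 elements, with co-opening at 0.940 within and 0.985 between loci. A threshold of 2% opened 5.07% of bins, and 5% opened 1.64% with 37 elements. Bins of 1000 bp gave 6.10%, with ratios of 1.61 (Fli1) and 0.865 (Ets1). Without depth groups co-opening was 1.16 within and 1.13 between loci, and without the tenth of cells with the most bases under more than 2 fragments it was 1.00 between loci. Chosen after seeing the data, bins nearer to the gene's own starts gave 1.42 (Fli1), whole elements gave 0.552 (Etv6), 0.700 (Ets1) and 0.844 (Ets2), and the Erg body fold was 4.35 and 4.49 in the 2 shallowest of the 4 depth groups. The cause of these shifts was not tested. The other 82 values stayed within the main interval, or within 1.5 times a count. Depth limits the co-opening values: the median pair within a window rested on 29.5 cells.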
